A study of Homo sapiens with 11 samples.

Results

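RT4 is an established human bladder cancer cell line that keeps features of the urothelium, the epithelium that lines the bladder, and its RNA was compared between nickel-exposed (Ni-E) and untreated (UT) cells. The 4 libraries used were chosen by their labels alone, 2 of UT cells and 2 of Ni-E cells, out of 11 samples in the series and 6 RNA-Seq libraries of RT4 cells. Both groups grew in the same serum-supplemented McCoy's medium. Ni-E cells were kept in 100 µM NiCl2 for 6 weeks, so the comparison describes ongoing exposure. UT cells received no nickel. The other 2 RT4 libraries came from nickel-washed-out (Ni-W) cells that spent 2 further weeks without the metal. They entered the filter on counts, the scaling and the estimate of the spread between replicates, but are not compared here. The study's methods call the replicates biological. Each condition has 1 library whose title carries a suffix for a duplicate, here replicate 2. The comparison asks which transcripts differ in RT4 cells while nickel is present.

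Nickel ions can take the place of iron in oxygenases that use iron and 2-oxoglutarate. These include the prolyl hydroxylases that mark the hypoxia-inducible factors (HIF) for destruction, the collagen hydroxylases and the Jumonji (JmjC) histone demethylases, so nickel salts are widely used to imitate low oxygen. HIF binds a short DNA element and activates genes of glucose uptake, glycolysis, blood vessel growth and mitophagy, and some of its target genes encode these same hydroxylases. Interferon-stimulated genes form another large inducible programme, switched on by interferon or by sensors of viral nucleic acid through a different element. Differentiated urothelium is known for its uroplakins, which plaque the luminal membrane, and for keratin 20 in its outermost cells.

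The libraries held 18065667 and 25721265 estimated counts in UT cells and 18280556 and 27736454 in Ni-E cells, with replicate 2 the deeper in both groups. Levels are given in CPM (counts per 1e6 counts) for replicates 1 and 2 in that order (n = 2 per group), and 14502 of 28252 listed genes had enough counts to be tested. A gene was called, and is said here to have risen or fallen, at a change of at least 1.5-fold with an adjusted p below 0.05 in edgeR's quasi-likelihood test with Benjamini-Hochberg adjustment over all genes tested. In that fit 211 genes rose (1.45% of those tested) and 103 fell (0.710%). The median change was 4.35-fold among the genes that rose and 5.23-fold among those that fell, while the median log2 fold change of all genes tested was −0.01. Groups that did not overlap, which 2 libraries against 2 give often, were seen in 2938 genes that were higher in Ni-E cells (20.3%) and in 2801 that were lower (19.3%). With the replicate number as a block, 1108 genes were called higher (7.64%) and 725 lower (5.00%), and these included all 211 and all 103. Replicates 1 and 2 differed by a set of genes that was much the same in all 3 conditions. The mean effective transcript length, weighted by TPM, was shorter in replicate 2 of each condition. It was 1833 and 1586 bases in UT, 1847 and 1655 in Ni-E and 2003 and 1594 in Ni-W cells. Whether the shared difference is technical was not tested. Deviations of replicate 2 from its group mean correlated at r = 0.66 between UT and Ni-E cells, 0.76 between UT and Ni-W cells and 0.69 between Ni-E and Ni-W cells, over 14502 genes. In the fit without a block, leaving out UT replicate 1 left 25 genes called higher and 19 lower, and leaving out UT replicate 2 left 11 and 7. No gene was called without Ni-E replicate 1, where 641 and 400 genes had an unadjusted p below 0.05 in the 2 directions, nor without Ni-E replicate 2, where 658 and 410 did. At the same deletions DESeq2 still called 147 to 248 genes higher and 80 to 99 lower, and the paired fit called 701 to 1382 higher and 418 to 872 lower. Results below are therefore given with the values of every library, and genes called only with the block are named as such.

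**Figure D1:**
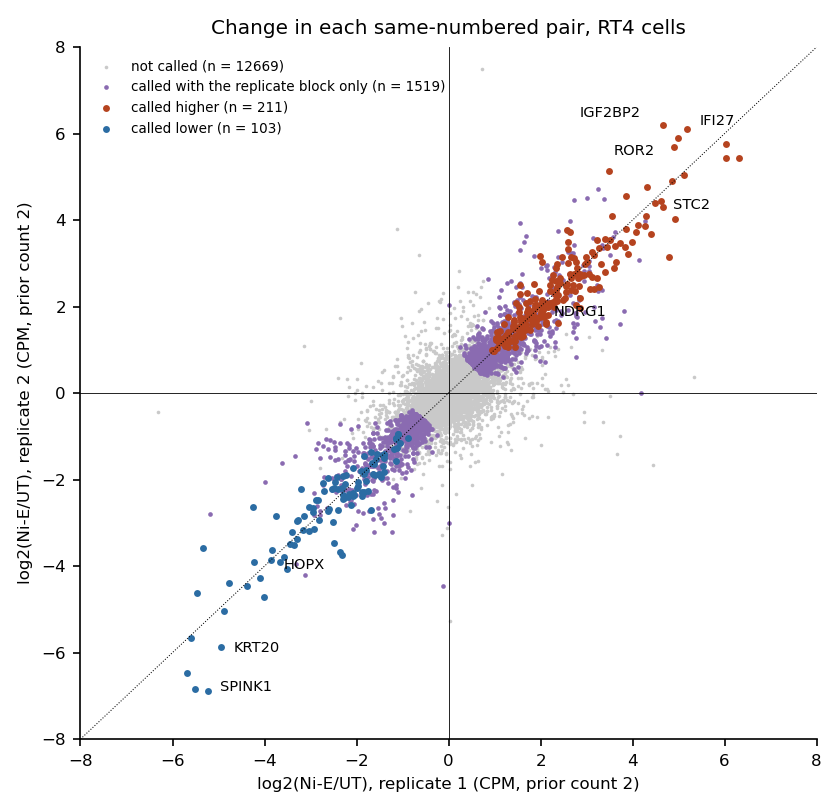
Each point is 1 of the 14502 genes tested, with the log2 ratio of Ni-E to UT cells in replicate 1 on the x axis and in replicate 2 on the y axis (CPM with a prior count of 2). The 211 genes called higher and the 103 called lower all moved the same way in both pairs. This follows from the calls, since the groups overlapped in no called gene. The dotted line marks equality of the 2 pairs, and some called genes lie off it, such as IGF2BP2 (4.66 and 6.19).

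The 4 libraries carried the transcripts of their labelled cell type. Of 14 urothelial and epithelial markers, 13 were at 1 TPM (transcripts per 1e6 transcripts) or more in every library, and their summed level was 13667 and 14929 TPM in UT and 14352 and 14612 TPM in Ni-E cells. KRT20 was the exception and is described below. Among 15 markers of fibroblasts, mural, blood and endothelial cells, PTPRC, PECAM1 and CDH5, which define leukocytes and endothelium, were at or below 0.04 TPM in all 4 libraries, as were the fibroblast genes COL1A2, DCN and LUM. The sum of these 15 markers was nevertheless higher in Ni-E cells, 17.7 and 17 TPM against 55.1 and 51.2 TPM, mostly through ACTA2. ACTA2, smooth muscle actin, rose from 4.78 and 6.95 CPM to 27.9 and 32.1 CPM (log2 fold change 2.35 ± 0.25 SE, adjusted p = 0.0193). With the block COL3A1, a fibrillar collagen gene, was called higher as well (0.84 and 0.26 against 4.13 and 2.18 TPM, adjusted p = 3.56e-05), as was the macrophage marker CD68 (7.33 and 7.3 against 12.97 and 10.55 TPM, adjusted p = 0.0297), and the endothelial marker VWF was called lower (1.88 and 0.91 against 0.96 and 0.57 TPM). The part of other cell types in the results was not tested. In bulk RNA a change in the share of cells that express a gene and a change in its RNA per cell cannot be told apart.

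HIF target genes outside glycolysis stood higher in nickel-exposed cells. Of 24 tested, 12 rose, with a median log2 fold change of 1.24 against −0.01 over all genes, and with the block 19 were called higher and 1 lower. STC2, which encodes the secreted glycoprotein stanniocalcin, changed most. Its level was 2.85 and 3.45 CPM in UT and 71.6 and 76.7 CPM in Ni-E cells, a log2 fold change of 4.55 ± 0.22 (SE) and an adjusted p of 0.00605. ADM, which encodes the vasodilator peptide adrenomedullin, went from 42.9 and 54.1 CPM to 213 and 266 CPM (2.30 ± 0.29, adjusted p = 0.0266). ANGPTL4, a secreted inhibitor of lipoprotein lipase, went from 9.99 and 12 to 51.9 and 65.9 CPM (2.42 ± 0.31, adjusted p = 0.0281). In each of these genes every Ni-E library stood well above every UT library. TMEM45A rose from 2.36 and 2.2 to 20.3 and 15.3 CPM (adjusted p = 0.0281). The mitophagy receptors BNIP3 and BNIP3L rose together, BNIP3 from 20.3 and 19.5 to 75 and 78.3 CPM and BNIP3L from 72.1 and 71.1 to 159 and 169.9 CPM (adjusted p = 0.0113 and 0.0326). DDIT4, an inhibitor of the growth kinase mTORC1 and the most abundant called gene of this list, went from 198 and 169 to 422 and 380.3 CPM (log2 fold change 1.12 ± 0.17, adjusted p = 0.0379). Other risers were BHLHE40 and MXI1, which encode transcriptional repressors, ERO1A, an oxidase of the endoplasmic reticulum, and INSIG2, a regulator of sterol synthesis, with log2 fold changes of 2.15, 1.97, 1.14 and 1.28.

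Familiar markers of nickel and hypoxia were among those called only with the block. NDRG1 was at 284 and 185 CPM in UT and 1138 and 781 CPM in Ni-E cells, a log2 fold change of 2.03 ± 0.36 (SE) with an adjusted p of 0.0577 without the block and 5.77e-07 with it. Its ratio was near the same in each pair (log2 2.00 and 2.08), although its level in replicate 1 was the higher in both groups. VEGFA, the vascular growth factor, was at 436 and 371 CPM and 833 and 659 CPM (adjusted p = 0.0968, 0.000167 with the block). CA9, the surface carbonic anhydrase IX, was at 60.2 and 78.6 CPM and 107 and 133 CPM (0.34 and 0.000987). The groups did not overlap in any of these. CA12, another carbonic anhydrase, moved the other way, from 586 and 537 CPM to 383 and 349 CPM, and was the list's member called lower with the block (adjusted p = 0.000826). BHLHE41, FAM162A, RAB20 and SPAG4 were called in neither fit.

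Some genes of glucose uptake and glycolysis rose. Of 23 tested, 4 rose, the median log2 fold change was 0.65, and 22 were higher in Ni-E cells in both pairs, as were 36.9% of all genes tested. With the block 14 were called higher. LDHA, which turns pyruvate to lactate, was among the most abundant genes called in the comparison. It went from 717 and 744 CPM to 1634 and 1800.0 CPM (log2 fold change 1.23 ± 0.16 SE, adjusted p = 0.028). PFKFB4, which sets the level of the glycolytic activator fructose 2,6-bisphosphate, went from 32 and 34.4 to 133 and 131 CPM (1.99 ± 0.17, adjusted p = 0.011), and ENO2, an enolase, from 48.7 and 57 to 140.0 and 154 CPM (1.48 ± 0.23, adjusted p = 0.0416). All 3 had UT libraries that lay close together and Ni-E libraries at least 2 times higher. SLC2A3, the glucose transporter GLUT3, was almost undetected in UT cells, with 0 and 2 counts, against 128 and 197 counts in Ni-E cells. The ratio of its pooled counts, scaled to library size, was 155, with a 95% exact interval for counting error of 42.5 to 1282 (adjusted p = 0.0122). SLC2A1, the main transporter GLUT1, was at 192 and 138 CPM and 425 and 321 CPM and was called with the block only (adjusted p = 0.109 and 1.27e-05). So were PFKFB3 (log2 fold change 2.95), PDK1, which shuts pyruvate out of the mitochondria (1.62), ALDOC (1.12), GPI (0.85), ALDOA (0.78) and PGK1 (0.77). GAPDH, often used as a reference gene, was at 6229.7 and 8399.9 CPM in UT and 8674 and 10559.5 CPM in Ni-E cells, and its difference was called in neither fit (0.39 ± 0.31, adjusted p = 0.834, 0.0348 with the block). SLC16A3, a lactate exporter, did not share the direction and was at 8.33 and 7.62 and 6.5 and 7.76 CPM (adjusted p = 0.989).

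Promoter stretches are shown for 4 of these genes, BNIP3, LDHA, ADM and EGLN3, because HIF is known to act at the core letters ACGTG or GCGTG and the genes rose together. The sequences are RefSeq promoters on GRCh38.p14, 120 bases each, written 5′ to 3′ on the gene's strand and lying before the start of transcription. Each was chosen as the stretch with the most matches to the core, nearest the start where several tied. LDHA has 2 listed starts, and the first was used. BNIP3 is the stretch chr10:131981947-131982066 (minus strand), LDHA chr11:18394378-18394497 (plus), ADM chr11:10304953-10305072 (plus) and EGLN3 chr14:33951075-33951194 (minus). Capitals mark the core on either strand. Neighbouring or overlapping matches run together, since CACGTG reads as ACGTG on both strands.
BNIP3: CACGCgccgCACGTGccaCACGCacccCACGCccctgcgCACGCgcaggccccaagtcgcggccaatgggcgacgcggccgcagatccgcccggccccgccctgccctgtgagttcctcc
LDHA: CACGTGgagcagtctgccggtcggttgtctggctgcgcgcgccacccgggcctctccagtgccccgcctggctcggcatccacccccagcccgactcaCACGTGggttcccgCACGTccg
ADM: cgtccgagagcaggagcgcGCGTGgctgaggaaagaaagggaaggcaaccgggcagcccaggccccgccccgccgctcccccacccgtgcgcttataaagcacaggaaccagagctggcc
EGLN3: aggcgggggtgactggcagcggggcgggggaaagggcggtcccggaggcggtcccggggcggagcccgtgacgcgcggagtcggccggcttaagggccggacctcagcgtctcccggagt
The 300-base promoter of BNIP3 held 6 matches, that of LDHA 6, that of ADM 1 and that of EGLN3 0. The core is short, and 48.4% of all 35116 promoters of this length in the RefSeq table held at least 1 match on either strand, so that a match is a description of the letters and not of binding. Shares of promoters among the called genes are not given, as 155 of the 211 genes that rose and 78 of the 103 that fell had a sequence, under the 80% set for such a check.

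**Figure D2:**
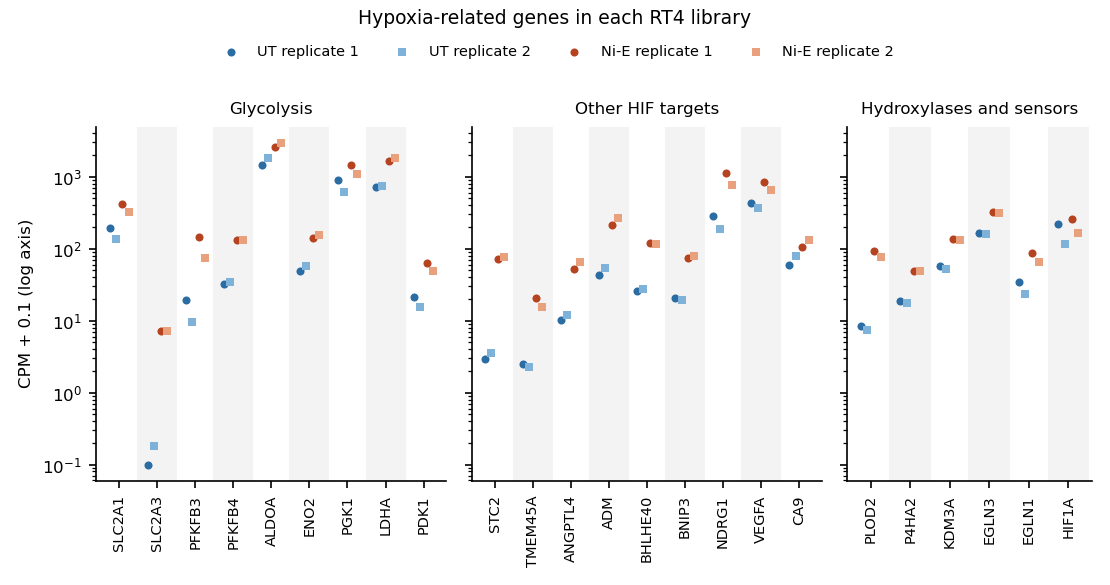
Levels of hypoxia-related genes in each RT4 library, as CPM + 0.1 on a log axis, with blue for UT and red for Ni-E cells and circles and squares for replicates 1 and 2. Ni-E libraries stood above UT libraries in all genes shown but HIF1A, where the groups overlapped.

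Some enzymes that depend on iron and oxygen were themselves among the genes that rose. KDM3A, a demethylase of lysine 9 of histone H3, was the single JmjC gene called of 21 tested. It went from 58.1 and 52.2 CPM to 137 and 132 CPM (log2 fold change 1.29 ± 0.19 SE, adjusted p = 0.0363). The median of the JmjC list was 0.03, and with the block KDM3A was called higher and KDM7A lower (11.5 and 9.62 against 6.34 and 5.94 CPM, adjusted p = 0.0296). Over all genes tested the block called 7.64% higher and 5.00% lower, so the JmjC list as a whole did not exceed these shares. PLOD2, which hydroxylates collagen lysines, rose as well. It was at 8.43 and 7.38 CPM in UT and 93.1 and 77.1 CPM in Ni-E cells (3.43 ± 0.35, adjusted p = 0.0169). P4HA2, a catalytic subunit of collagen prolyl hydroxylase, went from 18.5 and 17.5 to 48.8 and 49.4 CPM (1.45 ± 0.17, adjusted p = 0.0228). These were 2 of 10 collagen hydroxylases and lysyl oxidases tested, with P4HA1 called higher as well with the block (0.86, adjusted p = 0.000525) and a list median of 0.30. Of 10 genes of oxygen sensing, EGLN3 rose, a HIF prolyl hydroxylase whose level was 165 and 160.0 CPM in UT and 328 and 314 CPM in Ni-E cells (0.98 ± 0.15, adjusted p = 0.0404). EGLN1, the main HIF prolyl hydroxylase, was called with the block only (34.5 and 23.7 against 86.5 and 65.4 CPM, adjusted p = 7.33e-05), as was CITED2 (0.73), a HIF target that curbs HIF, while ARNT2 was called lower (−0.74). The transcript of HIF1A itself was at 224 and 117 CPM and 263 and 166 CPM, with overlapping groups (0.33 ± 0.56, adjusted p = 0.994). VHL, ARNT and HIF1AN had log2 fold changes between −0.01 and 0.01.

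Few metallothionein genes were detected in these cells. Of 14 metallothionein and zinc export genes, 9 were at 0 in all 4 libraries and 5 could be tested. MT2A, a metallothionein that binds zinc and other metals, rose from 0.483 and 0.707 CPM to 5.02 and 7.18 CPM (log2 fold change 3.33 ± 0.38 SE, adjusted p = 0.0218). Per length its level was 4.14 and 4.96 TPM in UT and 42.3 and 53.8 TPM in Ni-E cells. Metallothionein copies resemble each other enough that reads can be assigned to the wrong one. MT1X had 1 and 0 counts in UT and 6 and 35 in Ni-E cells, a pooled ratio of 39.0 with a 95% exact counting interval of 6.62 to 1578, and was called with the block only (adjusted p = 0.00507). The zinc exporter SLC30A1 was at 40.4 and 17.1 CPM and 76.7 and 45.7 CPM and was called with the block (adjusted p = 0.000953). Of 13 iron genes tested edgeR called none without the block, where 2 had an unadjusted p below 0.05 and were higher, DESeq2 called 2 higher and limma on TPM none. With the block 3 were called higher. These were the iron exporter SLC40A1, or ferroportin (13.9 and 10.2 against 52.4 and 36.1 CPM), CYBRD1, a ferric reductase (1.3), and the transferrin receptor TFRC, which stood at 849 and 302 CPM in UT and 1183 and 496 CPM in Ni-E cells. In TFRC the gap between replicates exceeded the gap between groups. The ferritin heavy chain FTH1 was at 3582 and 4177 CPM and 4463 and 4966 CPM (0.28 ± 0.22, adjusted p = 0.828).

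The promoter stretch of MT2A, chr16:56608431-56608550 (plus strand, GRCh38.p14, RefSeq), is shown since metallothionein promoters are known for repeats of the metal response element. It was again chosen as the stretch with the most matches. Capitals mark its core, TGCACNC or TGCGCNC on either strand.
MT2A: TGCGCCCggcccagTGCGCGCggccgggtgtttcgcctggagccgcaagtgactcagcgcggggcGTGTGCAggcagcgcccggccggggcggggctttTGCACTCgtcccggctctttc
The whole 300-base promoter held 8 matches, 4 of them in this stretch. At least 1 match was present in 29.6% of all promoters in the table.

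Targets of NRF2, the factor that answers oxidative and electrophilic stress, showed 3 rises among 22 genes tested and a median log2 fold change of 0.47. AKR1C1, an aldo-keto reductase, went from 16 and 20.8 CPM to 104 and 117 CPM (2.59 ± 0.24 SE, adjusted p = 0.0124). It shares most of its sequence with AKR1C2 and AKR1C3, so that the split of reads between them is uncertain, and AKR1C2 was at 295 and 384 CPM and 339 and 425 CPM with no call. SLC7A11, the cystine importer, went from 15.5 and 15.2 to 50.6 and 50.3 CPM (1.72 ± 0.24, adjusted p = 0.0321), and AKR1B10 from 1.29 and 1.49 to 5.07 and 4.99 CPM (adjusted p = 0.0365). With the block 8 genes were called higher, among them TXNRD1 (1.73) and OSGIN1 (1.36). HMOX1, heme oxygenase and a usual marker of metal stress, was at 76.6 and 117 CPM in UT and 105 and 131 CPM in Ni-E cells, with groups that overlapped (0.28 ± 0.32, adjusted p = 0.951). NQO1, another familiar target, was at 425 and 471 and 521 and 566 CPM and was called in neither fit.

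Interferon-stimulated genes stood higher in nickel-exposed cells. Of 45 tested, 16 rose (35.6%, against 50.0% of the HIF targets and 36.8% of the chemokines and cytokines), 44 were higher in Ni-E cells in both pairs (36.9% of all genes), and the median log2 fold change was 1.18. With the block 33 were called higher. The largest changes were in genes that were nearly silent in UT cells. IFI27 was at 0.645 and 0.393 CPM in UT and 26.7 and 33 CPM in Ni-E cells (5.87 ± 0.46 SE, adjusted p = 0.00928), and IFI44L was at 0.483 and 0.236 CPM and 18.1 and 19.4 CPM (5.73 ± 0.34, adjusted p = 0.00773). The sizes of these changes rest on few UT counts, 12 and 10 for IFI27 and 9 and 6 for IFI44L. IFI6 went from 3.55 and 5.69 CPM to 70.0 and 84.5 CPM (4.05 ± 0.32, adjusted p = 0.00928). IFIT1, whose protein binds viral RNA with foreign 5′ ends, went from 1.56 and 2.47 to 26 and 29 CPM (3.75 ± 0.28, adjusted p = 0.00895). In all 4 the libraries of a group lay close together and far from the other group. Antiviral effectors followed the same direction, with RSAD2, or viperin, at 1.77 and 0.667 CPM and 11 and 10.3 CPM, and BST2, or tetherin, at 2.58 and 3.26 CPM and 20.5 and 22.1 CPM. OASL (2.12), MX1 (1.31), the RNA sensor DDX58, or RIG-I (1.23), and XAF1 (2.31) also rose. IRF9 and ISG15 were called with the block only. IRF9, the DNA-binding subunit of the interferon-activated complex, was at 19.2 and 32.3 CPM in UT and 70.6 and 88.6 CPM in Ni-E cells (adjusted p = 0.0939, 1.24e-05 with the block). ISG15, a ubiquitin-like protein, was at 11.7 and 18.3 CPM and 37.9 and 59.7 CPM (adjusted p = 0.168, 2.36e-05 with the block).

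The promoters of IFI6, IFIT1 and IFI44L are shown for the letters GAAA, any 2 bases and GAAA again, the core of the interferon-stimulated response element, which the interferon-activated complex binds. IFI6 is the stretch chr1:27672229-27672348 (minus strand), IFIT1 chr10:89392503-89392622 (plus) and IFI44L chr1:78620284-78620403 (plus), all RefSeq on GRCh38.p14 and 5′ to 3′. These too were the stretches with the most matches. Capitals mark the core on either strand.
IFI6: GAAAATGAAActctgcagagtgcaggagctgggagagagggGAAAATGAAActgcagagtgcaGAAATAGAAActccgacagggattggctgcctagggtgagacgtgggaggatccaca
IFIT1: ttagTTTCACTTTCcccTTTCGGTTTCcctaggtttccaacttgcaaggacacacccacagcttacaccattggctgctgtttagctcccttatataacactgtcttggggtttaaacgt
IFI44L: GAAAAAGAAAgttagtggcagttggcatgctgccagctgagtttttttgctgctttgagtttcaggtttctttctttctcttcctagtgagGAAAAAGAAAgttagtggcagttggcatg
The 300-base promoters held 3, 2 and 2 matches. Of all promoters given by RefSeq, 3.57% held at least 1 match.

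Chemokines and cytokines had the highest median of any list, a log2 fold change of 1.46 over 19 genes tested, of which 7 rose and 14 were called higher with the block. CXCL10, a ligand that draws T cells and is induced by interferon, went from 3.01 and 2.87 CPM to 36.3 and 50.2 CPM (3.88 ± 0.26 SE, adjusted p = 0.0085). CXCL8, which draws neutrophils, went from 15.1 and 15.5 CPM to 90.4 and 89.8 CPM (2.55 ± 0.22, adjusted p = 0.0113). LIF, a cytokine of the interleukin-6 family, went from 32.9 and 35.9 to 113 and 98.6 CPM (1.62 ± 0.18, adjusted p = 0.0199). Both interleukin-1 genes rose, IL1A from 51 and 49.2 CPM to 108 and 122 CPM and IL1B from 31.7 and 35.3 CPM to 96.6 and 101 CPM (adjusted p = 0.0331 and 0.0199). CSF1, the macrophage growth factor, also rose, from 21.6 and 26.3 to 66.5 and 65.3 CPM. CSF2 rose from a level near the limit of detection, 0.161 and 0.196 CPM, to 1.1 and 1.68 CPM (adjusted p = 0.046). Inhibitors in the NF-κB pathway were called with the block only, TNFAIP3 at 20.7 and 15.2 and 70.5 and 52.3 CPM and NFKBIA at 471 and 548 and 792 and 879.7 CPM (adjusted p = 5.79e-06 and 0.000334). IL6, TNF and CCL2 did not have enough counts to be tested.

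Genes of antigen presentation by MHC class I changed less. Of 13 tested edgeR called none without the block, where 2 had an unadjusted p below 0.05, and neither DESeq2 nor limma on TPM called any. With the block 2 were called higher, and the median log2 fold change was 0.42. B2M, the light chain of class I molecules, was at 1351 and 1330.5 CPM and 1495 and 1519 CPM (0.17 ± 0.15 SE, adjusted p = 0.886). HLA-E, HLA-G and PSMB9, a proteasome subunit, were listed at 0 in every library. HLA genes resemble each other, so their counts are uncertain. Low counts were not limited to them. TAP1, TAPBP and PSMB8 had 24 counts or fewer in every library and TAP2 had 1 or fewer. The list median thus rests partly on genes with few counts, and the reason for the low counts was not tested.

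**Figure D3:**
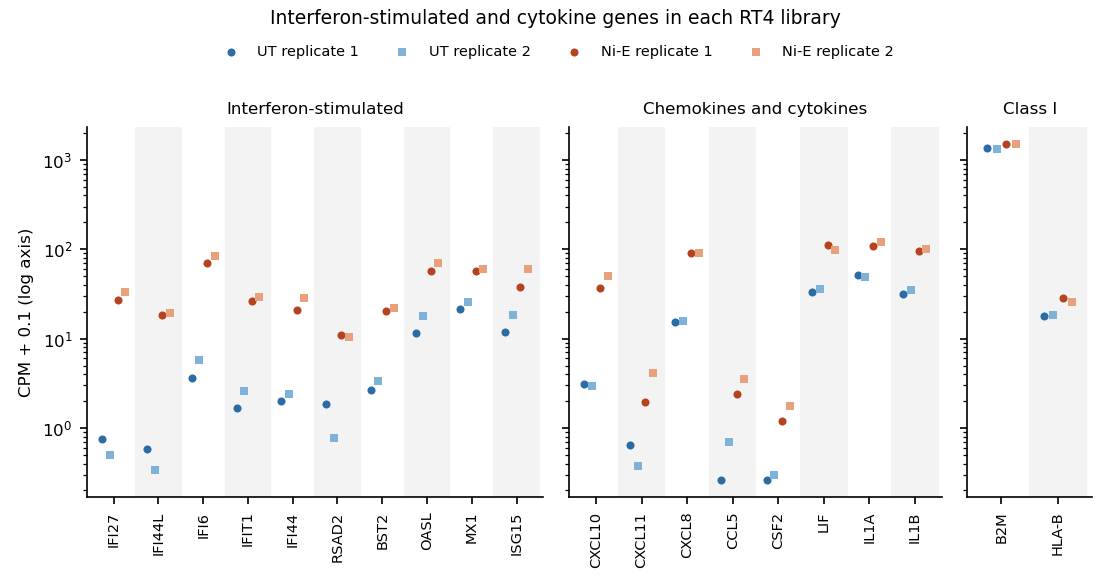
Levels of interferon-stimulated genes, chemokines and cytokines, and class I genes in each RT4 library (CPM + 0.1, log axis), with blue for UT and red for Ni-E cells. IFI27 and IFI44L in UT cells stood at 0.645 and 0.393 and 0.483 and 0.236 CPM, and reached 26.7 and 33 and 18.1 and 19.4 CPM in Ni-E cells, and B2M differed little.

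Urothelial differentiation genes stood lower in nickel-exposed cells. Of 19 tested, 2 fell, 8 were called lower with the block and the median log2 fold change was −0.46, the lowest of the lists. PSCA, a surface antigen of differentiated urothelium, went from 58.4 and 87.2 CPM to 5.24 and 7.65 CPM (−3.49 ± 0.38 SE, adjusted p = 0.0201). UPK1A, a uroplakin, went from 41 and 65 CPM to 9.59 and 12.3 CPM (−2.27 ± 0.33, adjusted p = 0.0376). The other uroplakins were called lower with the block only. UPK2 was at 113 and 193 CPM in UT and 39.2 and 58.5 CPM in Ni-E cells (−1.65 ± 0.43, adjusted p = 0.159, 7.88e-06 with the block), UPK1B at 104 and 102 and 58.3 and 58.4 CPM, and UPK3A at 32.2 and 49.8 and 23.1 and 29.8 CPM. In every uroplakin both Ni-E libraries lay below both UT libraries. FOXA1, a transcription factor of luminal urothelium, was also called lower with the block (275 and 235 and 167 and 167 CPM, adjusted p = 0.00177), whereas GATA3, which acts beside it, was at 363 and 365 CPM and 334 and 316 CPM and was not called.

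Keratins moved in different directions. Of 15 tested, 3 fell, and with the block 4 were called lower and 3 higher (median log2 fold change −0.25). KRT20, the keratin of the outermost urothelial cells, fell from 9.51 and 11.7 CPM to 0.221 and 0.109 CPM (−6.03 ± 0.41, adjusted p = 0.0085). It had 4 and 3 counts in Ni-E cells, so that the size of its change rests on few counts. KRT23 fell from 5.8 and 7.97 CPM to 0.276 and 0.219 CPM and KRT13, a keratin of the intermediate layer, from 27.9 and 36.5 CPM to 4.47 and 5.47 CPM (adjusted p = 0.011 and 0.0169). In contrast, KRT17, KRT5 and KRT6A, keratins of basal or activated epithelium, stood higher and were called with the block only. Others of that kind did not share the direction and were called in neither fit. KRT16 was at 3.22 and 3.77 CPM in UT and 2.04 and 2.3 CPM in Ni-E cells, and KRT15 at 17 and 31.4 and 15.8 and 20.7 CPM. KRT14 did not have enough counts to be tested. KRT17 was at 463 and 647 CPM and 791 and 957 CPM (adjusted p = 0.552, 0.00338 with the block), KRT5 at 2.42 and 2.16 and 5.68 and 4.74 CPM, and KRT6A had 0 and 1 counts in UT and 10 and 14 in Ni-E cells (pooled ratio 22.8, 95% exact counting interval 3.72 to 939). The abundant simple keratins KRT7 and KRT8 were at 3349 and 4401 and 1429 and 1925 CPM in UT and 4279.7 and 4921 and 1319.9 and 1494 CPM in Ni-E cells, respectively, with no call.

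**Figure D4:**
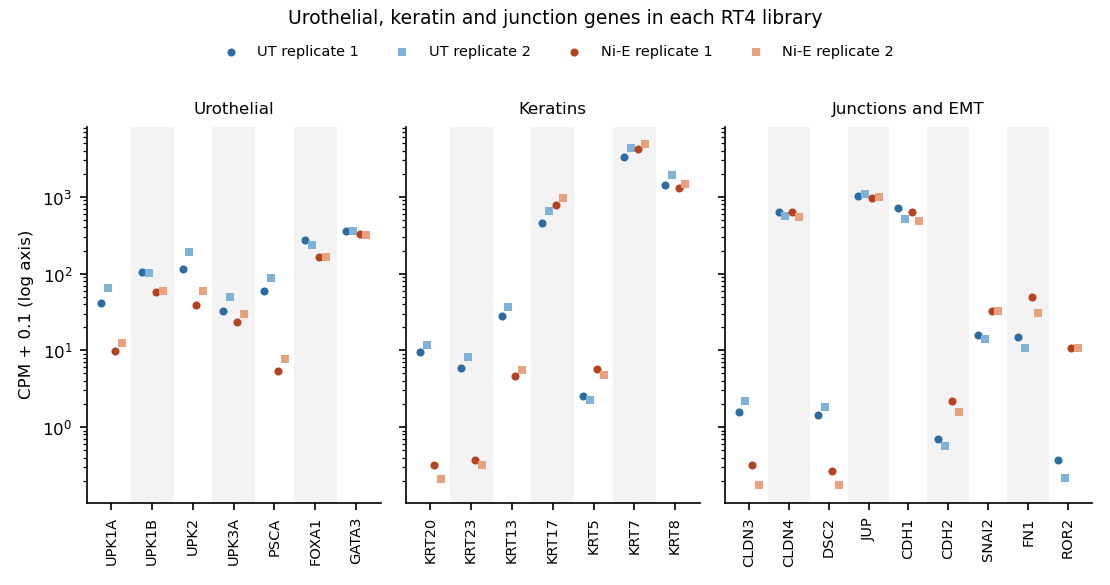
Levels of urothelial, keratin, junction and mesenchymal genes in each RT4 library (CPM + 0.1, log axis), with blue for UT and red for Ni-E cells. PSCA, UPK1A, KRT20, KRT23, KRT13, CLDN3 and DSC2 fell and SNAI2 and ROR2 rose, while CDH1, JUP and CLDN4 overlapped or lay close.

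Junction genes gave scattered calls. DSC2, a desmosomal cadherin, fell from 1.34 and 1.73 CPM to 0.165 and 0.0729 CPM (adjusted p = 0.0451) and was the single call of 8 desmosome genes, whose median was −0.13. CLDN3, a claudin of tight junctions, fell from 1.45 and 2.08 CPM to 0.221 and 0.0729 CPM (adjusted p = 0.0448) and was the single call of 15 tight junction genes, whose median was −0.18. Both were low in UT cells already. The abundant members JUP (−0.11) and CLDN4 (−0.00) were not called. With the block the desmosomal plakophilin PKP1 (−1.52) and the tight junction genes TJP3, OCLN and CLDN23 were called lower too, the last 3 with log2 fold changes of −1.20, −0.61 and −0.83. Among 15 genes of epithelial-mesenchymal transition (EMT), 2 rose and the median was 0.05. ROR2, a receptor for WNT5A, rose from 0.269 and 0.118 CPM to 10.7 and 10.7 CPM (5.81 ± 0.39 SE, adjusted p = 0.0085). It had 5 and 3 counts in UT cells, so that the size of its change rests on few counts. SNAI2, a repressor of epithelial genes, rose from 16 and 13.9 CPM to 32.9 and 32.6 CPM (1.13 ± 0.18, adjusted p = 0.046). FN1, or fibronectin, and CDH2, or N-cadherin, were called higher with the block (15 and 10.5 against 49.2 and 30.9 CPM and 0.591 and 0.471 against 2.09 and 1.46 CPM). CDH1, E-cadherin, was at 716 and 509.6 CPM and 635 and 479 CPM with overlapping groups (−0.14 ± 0.31, adjusted p = 0.997). VIM, ZEB1, SNAI1 and TWIST1 did not have enough counts to be tested.

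Growth factor signalling gave calls in both directions. EGR1, an immediate early transcription factor, rose from 57.3 and 41.1 CPM to 300.2 and 198 CPM (2.34 ± 0.30 SE, adjusted p = 0.028) and was the single call of 18 AP-1 and immediate early genes, of which 8 were called higher with the block (median 0.59). MYC was one of those, at 128 and 54.7 CPM in UT and 314 and 146 CPM in Ni-E cells, a log2 ratio of 1.29 and 1.41 in the 2 pairs (adjusted p = 0.522, 9.08e-06 with the block). DUSP5, a phosphatase of ERK, rose from 121 and 117 to 233 and 233 CPM (adjusted p = 0.0419), whereas SPRY4, an inhibitor of receptor tyrosine kinase signalling, fell from 117 and 116 CPM to 43.5 and 36.3 CPM (−1.55 ± 0.18, adjusted p = 0.0218). They belonged to a list of 17 MAPK feedback genes with a median of 0.21. Of 20 genes of TGF-β and BMP signalling 2 rose, the ligand TGFB1 from 107 and 113 CPM to 294 and 280.1 CPM (1.38 ± 0.16, adjusted p = 0.0228) and the matrix protein TGFBI from 4.94 and 3.45 CPM to 23.2 and 20.0 CPM (2.36 ± 0.26, adjusted p = 0.0199), and the median was 0.34. Of 17 integrins edgeR called none without the block, where 3 higher and 1 lower had an unadjusted p below 0.05, DESeq2 called 1 higher and limma on TPM none. With the block 4 were called higher, among them ITGA1 (0.215 and 0.118 and 1.49 and 1.75 CPM). ITGA3, the most abundant, was at 1723 and 1824 CPM and 2307 and 2162 CPM.

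Stress and metabolic lists held isolated calls. ATF3, a stress-induced transcription factor, rose from 4.89 and 8.52 CPM to 33.2 and 44.1 CPM (2.52 ± 0.34 SE, adjusted p = 0.0313) and VLDLR, the very low density lipoprotein receptor, from 5.69 and 5.34 CPM to 32.2 and 23.9 CPM (adjusted p = 0.020), 2 of 23 genes of the integrated and ER stress response (median 0.17). HSPB8, a small heat shock protein, rose from 2.52 and 3.14 to 10.5 and 11.3 CPM (adjusted p = 0.0244), the single call of 14 chaperone genes (median 0.29). HILPDA, a lipid droplet protein that HIF is known to induce, rose from 62.6 and 66.3 CPM to 179 and 185 CPM (1.5 ± 0.17, adjusted p = 0.0228), the single call of 21 genes of fatty acid synthesis and lipid storage (median 0.01). In one-carbon metabolism GLDC, which splits glycine, fell from 33.9 and 22.9 CPM to 4.52 and 4.08 CPM (−2.72 ± 0.35, adjusted p = 0.0276), while TYMS, thymidylate synthase, rose from 123 and 100.4 CPM to 251 and 241 CPM (1.14 ± 0.18, adjusted p = 0.0456), out of 18 tested. Of 25 cholesterol genes edgeR called none without the block, where 2 had an unadjusted p below 0.05, DESeq2 called 1 higher and limma on TPM none. With the block 2 were called higher, among them STARD4 (1.78), near the share over all genes tested, 7.64%. FDFT1, squalene synthase, was at 1201 and 1066 CPM and 1154 and 1068 CPM.

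Proliferation genes were called by edgeR only with the block. Of 35 cell cycle genes, 4 higher and 6 lower had an unadjusted p below 0.05 without it, DESeq2 called 1 in each direction and limma on TPM none. With the block 2 were called higher (RRM2 and CCNE2) and 3 lower, near the shares over all genes tested, 7.64% and 5.00%. However, with the block 13 higher and 10 lower had an unadjusted p below 0.05 in edgeR's test. Over all 14502 genes tested 2373 and 2034 did. The 3 called lower were PLK1, from 55.3 and 38.1 CPM to 26.9 and 18.7 CPM, KIF20A, from 77.6 and 89.9 CPM to 42.2 and 46.1 CPM, and AURKA, from 56.7 and 57.8 CPM to 33.4 and 38.4 CPM (adjusted p with the block = 0.000251, 0.000228 and 0.00226). MKI67, the antigen Ki-67, was at 246 and 166 CPM in UT and 265 and 154 CPM in Ni-E cells, overlapping (0.02 ± 0.44 SE, adjusted p = 0.999), and PCNA was at 217 and 256 and 318 and 379 CPM with no call. Of 19 cyclin-dependent kinase inhibitors and p53 targets 9 were called higher, again with the block only, and the median was 0.43. Without it 8 had an unadjusted p below 0.05, DESeq2 called 5 higher and limma on TPM none. CDKN1A, or p21, was at 280.2 and 273 CPM and 512 and 491 CPM (0.86 ± 0.15, adjusted p = 0.0537, 9.91e-05 with the block). GDF15, a secreted stress factor, was at 271 and 403 CPM and 596 and 743 CPM (0.305 and 0.00022). Of 15 genes whose symbols begin with S100, among them S100PBP, which is not an S100 protein, edgeR called none without the block. There 3 lower had an unadjusted p below 0.05, and DESeq2 and limma on TPM each called 1 lower. With the block 1 was called higher and 4 lower, among them S100A4 at 44.5 and 64.7 CPM and 12.2 and 17.3 CPM. S100A6, the most abundant of those called lower, was at 1321 and 2214 CPM and 863 and 1207 CPM.

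Large housekeeping groups had few calls or none. None of 61 nuclear genes of the respiratory chain was called in either fit, with a median log2 fold change of −0.15, a range of −0.48 to 0.11, and UQCRH at 297 and 421 and 254 and 361 CPM. None of 73 ribosomal protein genes was called in either fit (median −0.09). In both lists no gene had an unadjusted p below 0.05 in edgeR's fit without the block, and neither DESeq2 nor limma on TPM called any. With the block 8 respiratory chain genes had an unadjusted p below 0.05, all lower, and 6 ribosomal protein genes did, 3 in each direction. None of 15 genes of the complexes that methylate lysine 4 of histone H3 was called in either fit (median 0.06, DPY30 at 35.5 and 49.8 and 35.5 and 53.3 CPM). Of 19 repressive chromatin genes TET2 was called higher with the block (0.76), as were 7.64% of all genes tested, with HDAC1 at 269.8 and 312 and 235 and 258 CPM. Neither list had an unadjusted p below 0.05 without the block or a call by DESeq2 or limma on TPM. Of 24 replication-dependent histone genes tested 2 had an unadjusted p below 0.05 without the block, DESeq2 and limma on TPM called none, and 3 were called higher with the block, HIST1H1C at 20.0 and 35.2 and 38.6 and 55.8 CPM among them. Histone genes make transcripts that mostly lack a poly(A) tail and resemble each other, so their counts are uncertain.

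**Figure D5:**
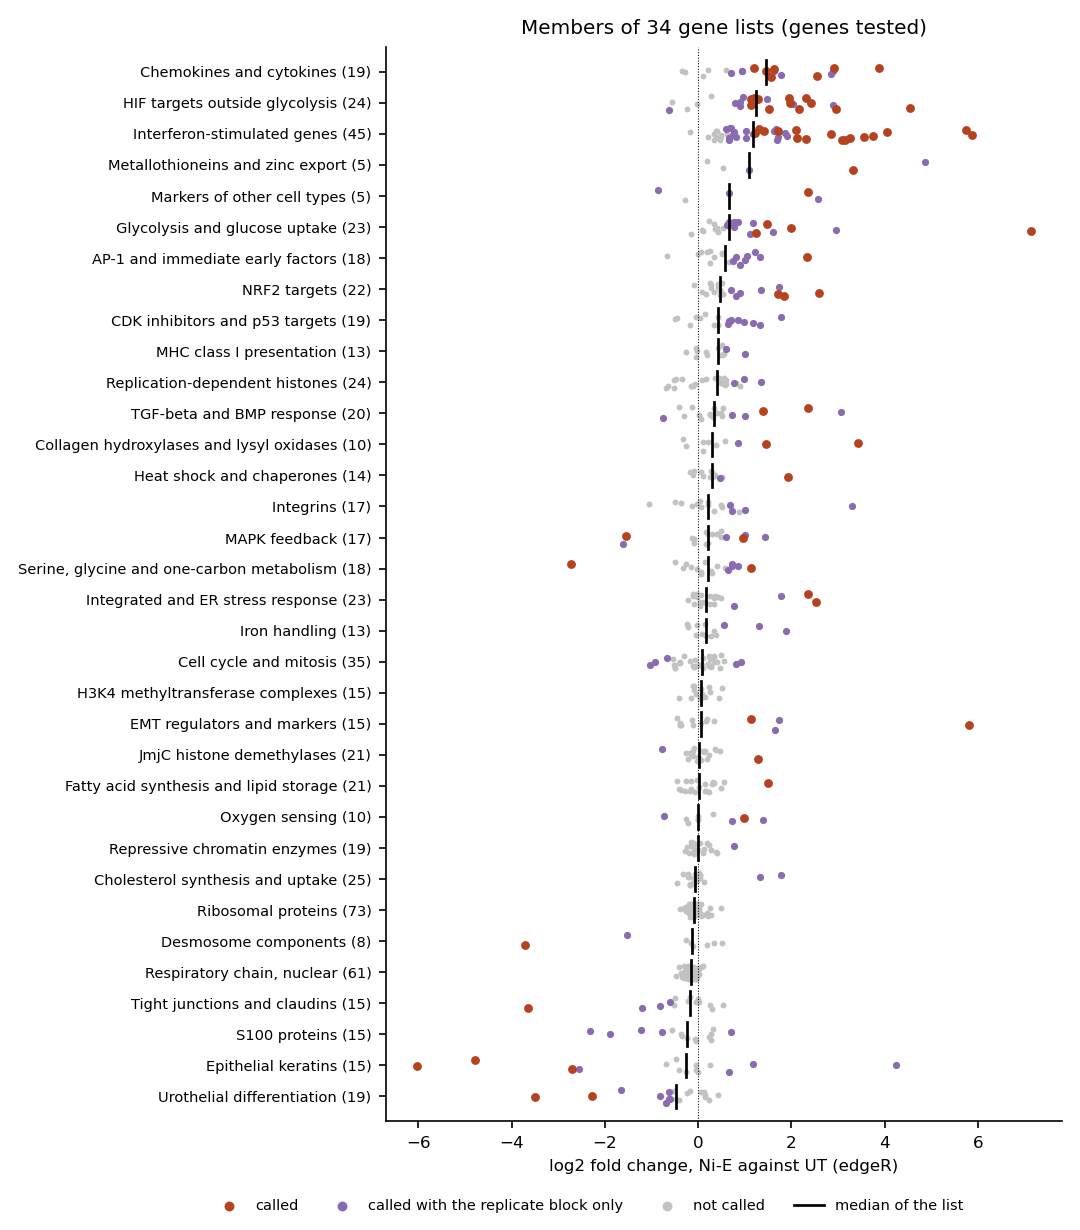
Log2 fold changes of Ni-E against UT cells for the tested members of 34 gene lists, 1 point a gene, with the number tested in parentheses and a black bar at each median. Chemokines and cytokines (median 1.46), HIF targets (1.24) and interferon-stimulated genes (1.18) lie farthest to the right, and urothelial differentiation (−0.46) farthest to the left.

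Most called genes lay outside these lists, which held 68 of the 314. The largest rises among genes at 5 CPM or more on average, beside those of the interferon, HIF and EMT lists, were in IGF2BP2, which encodes an RNA-binding protein (0.322 and 0.0393 CPM in UT and 10.4 and 9.36 CPM in Ni-E cells, adjusted p = 0.0228), PPP4R4, a subunit of protein phosphatase 4 (1.18 and 0.707 and 25.4 and 21.5 CPM, adjusted p = 0.00873), TRABD2B, a metalloprotease that cleaves WNT proteins (0.43 and 0.55 and 10.1 and 10.8 CPM, adjusted p = 0.00775), and the histamine receptor HRH2 (1.02 and 0.196 and 12.3 and 9.91 CPM, adjusted p = 0.0412). All were close to silent in UT cells. Their fitted fold changes rest on few counts in UT cells and are not given.

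The largest falls left most genes near 0. DAB1, an adaptor of reelin signalling, went from 19.1 and 14.4 CPM to 0.331 and 0.0364 CPM and SPINK1, a secreted trypsin inhibitor, from 17.9 and 27.9 CPM to 0.386 and 0.146 CPM (adjusted p = 0.0179 and 0.0122). RARRES1, a retinoid-responsive gene, went from 12.3 and 12.4 CPM to 0.331 and 0.291 CPM (adjusted p = 0.00664). PLEKHS1 went from 32.9 and 33.8 to 1.49 and 1.46 CPM and FAM78B from 57.5 and 55.7 to 3.91 and 4.45 CPM. The 4 libraries of these last genes fell into separate groups with little spread within each. HOPX, a homeodomain protein without DNA binding, fell 14.9-fold, from 41.7 and 44.9 CPM to 2.81 and 2.99 CPM (log2 fold change −3.90 ± 0.21 SE, adjusted p = 0.00605). CXCL17, a mucosal chemokine, fell 16.8-fold, from 21.4 and 32.8 to 1.05 and 2.11 CPM (adjusted p = 0.0199), against the direction of the chemokine list. PLA2G2A, a secreted phospholipase, fell from 43 and 69.1 CPM to 3.31 and 4.55 CPM, and TAC3, a tachykinin precursor, from 8.86 and 14.8 CPM to 0.662 and 0.984 CPM.

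Among the called genes with the highest levels per length were CYP4B1, DDIT4, LDHA and LCN2. CYP4B1, a cytochrome P450, fell from 813 and 1078 CPM to 165 and 196 CPM (−2.39 ± 0.25 SE, adjusted p = 0.0179). LCN2, which binds bacterial siderophores, rose from 21.5 and 32.2 CPM to 151 and 204 CPM (2.73 ± 0.38, adjusted p = 0.0329). In CYP4B1 and LCN2 the groups lay far apart compared with the gap between their libraries.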

How the data were processed

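All 6 RNA-Seq libraries of RT4 cells were read, 2 a condition. Per gene, the files deposited by the authors give estimated counts from RSEM, effective lengths, and TPM and FPKM values. The study's methods name STAR, the build hg19 and RefSeq genes for the RNA, whereas the submitters' processing notes list GRCh38 and hg38, and which build the RSEM values rest on was not settled. Estimated counts as deposited were rounded and tested with edgeR 4.0.16 (R 4.3.3; TMM, filterByExpr, quasi-likelihood F-test) in a means model with all 3 conditions, at 1.5-fold and a Benjamini-Hochberg adjusted p below 0.05. The titles carry no replicate number. Libraries were numbered here by the absence (1) or presence (2) of the duplicate suffix, and this number served as replicate block in a second fit. Deviations of same-numbered libraries correlated at r = 0.66 to 0.76, although the labels do not say what the suffix marks. If libraries of a group share a culture, p-values measure technical spread only. Each SE was back-calculated from the F-test, as the absolute log2 fold change over the square root of F. It thus restates the test and is not a separate measure of spread. CPM use edgeR's effective library sizes. The deposited TPM values served for the marker check and for limma 3.58.1 on log2 values, and the deposited FPKM values and lengths entered no test. DESeq2 1.42.0 was an alternative. Intervals cover counting error only, since reads carry no molecular identifiers. Fits were tested on simulated data. ChIP-Seq was not used.

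Gene lists and tests were chosen with earlier results of these data known. Named genes were, among called genes at 5 CPM or more on average without overlap, the 10 largest rises and falls, up to 4 called genes per list, or else its most abundant gene, the 5 called genes of highest TPM, and 12 chosen genes, and further list members are given as examples. Some genes that meet this rule are not reported here. Alternatives were other scaling, filters, tools, groups and pseudocounts, the block and each library left out. Promoter sequences come from RefSeq on GRCh38.p14.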

Additional observations from a re-analysis of the deposited data

How the results depend on the processing

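The fit without a block called 211 genes higher and 103 lower, and every alternative that tested one of these genes gave it the same direction. The replicate block raised the counts to 1108 and 725, and to 1262 and 873 with UT and Ni-E libraries alone, and DESeq2 gave 461 and 269. Fewer were called by limma on log2(TPM + 1), 107 and 63, by limma on log2(TPM + 0.1), 112 and 61, and by a test against 1.5-fold, 103 and 52, and at least 10 counts in every library left 139 called higher. Leaving out 1 library at a time gave 0 to 1382 genes called higher and 0 to 872 lower, over the fit without a block, DESeq2 and the paired fit. The last 2 kinds of these refits, and no other alternative, were chosen after seeing the data. In the paired fit every call of the fit without a block was kept at each deletion. The lone library left in a group was taken to vary like the other groups. Scaling by RLE (205 and 102), no filter on low counts (299 and 150) and the UT and Ni-E libraries alone without a block (236 and 118) stayed within 1.5 times of the first counts. With 2 libraries a group, a change under the spread between replicates 1 and 2 was not detectable without the block, and the labels do not say what the shared title suffix marks.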

Other observations

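The following genes lie outside the lists and were named after their values were seen, so they stand for no group. The collagenase MMP1 was at 21.6 and 24.8 CPM in UT and 91.3 and 100.1 CPM in Ni-E cells (log2 fold change 2.04 ± 0.19 SE, edgeR adjusted p = 0.0129), and MMP10, a stromelysin, was at 6.07 and 6.67 CPM and 31 and 30.4 CPM (adjusted p = 0.0124). HAS2, which makes hyaluronan, was at 2.74 and 2.9 CPM and 20.4 and 13.7 CPM (adjusted p = 0.0477). The basement membrane genes HSPG2, LAMA4 and COL17A1 were at 97.9 and 87.9, 3.87 and 2.43 and 108 and 108 CPM in UT cells and 291 and 216, 19.1 and 16.7 and 267 and 248 CPM in Ni-E cells (adjusted p = 0.0493, 0.0286 and 0.0266). PGF, placental growth factor, went from 6.82 and 8.56 CPM to 49.8 and 58.6 CPM (adjusted p = 0.0122) and VEGFC, a lymphatic growth factor, from 4.57 and 5.5 CPM to 20.2 and 23.6 CPM (adjusted p = 0.0313). Complement C3 was at 61.9 and 57.7 CPM and 255 and 243 CPM (2.06 ± 0.16, adjusted p = 0.00895), and the creatine importer SLC6A8 at 120.4 and 129 CPM and 531 and 527 CPM (2.08 ± 0.16, adjusted p = 0.00928). CHST2, a sulfotransferase, went from 26.9 and 23.8 CPM to 305 and 277 CPM (3.52 ± 0.18, adjusted p = 0.00605).

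Among the falls outside the lists, also named after their values were seen, HPGD, which breaks down prostaglandins, went from 597 and 432 CPM to 106 and 93.5 CPM (−2.37 ± 0.30, adjusted p = 0.028). PADI3, a peptidylarginine deiminase, went from 186 and 185 CPM to 37.9 and 36.1 CPM (−2.32 ± 0.16, adjusted p = 0.0085), and IVL, involucrin of stratifying epithelium, from 119 and 141 CPM to 54.6 and 58.3 CPM (adjusted p = 0.0458). PIGR, which carries immunoglobulins across epithelium, went from 18.2 and 12.7 CPM to 1.98 and 1.68 CPM, and CKB, brain-type creatine kinase, from 51.3 and 67.2 CPM to 8.38 and 10.5 CPM (adjusted p = 0.0419 and 0.023). CEBPA, a differentiation factor, went from 77.5 and 81 CPM to 29.4 and 30.4 CPM (adjusted p = 0.030). No explanation of these differences was tested.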
